A study of Drosophila melanogaster with 2 samples.

Results

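EcR encodes the ecdysone receptor of Drosophila melanogaster, and its H3K27ac peaks were described across the gene and its surroundings. In RefSeq's gene table for Release 6 (dm6), EcR (gene ID 35540, locus tag Dmel_CG1765) lies on chromosome arm 2R from 6087873 to 6169087 and is 81215 bp long. Members were all deposited peaks that overlapped this span extended by 10 kb on both sides, from 6077873 to 6179087. This rule gave 20 of the 14461 peaks of replicate 1 and 29 of the 26420 peaks of replicate 2. The gene was chosen with results of these lists in view, and its peaks were selected on their position, with width and replicate agreement named in the same rule. All values on these quantities are therefore a description, and no test was run on them.

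Ecdysone is the steroid hormone that times moulting and metamorphosis in insects. EcR is a nuclear receptor that binds DNA as a heterodimer with the product of usp, and the pair switches target genes between repression and activation as the hormone level changes. EcR is itself a target of the hormone, and alternative promoters give receptor isoforms that differ in the amino-terminal region. In the pupal wing, ecdysone pulses are known to time cell cycle exit, cuticle deposition and pigmentation. H3K27ac is a histone modification that accompanies active promoters and enhancers.

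The material was pupal wings of males of the transgenic Drosophila melanogaster line D2 at 67% of pupal development, a time when, per the series description, spot activity was repressed. Each of the 2 biological replicates pooled 35 to 45 wings, and CUT&RUN, in which an antibody guides a nuclease to the marked chromatin, was done after 1 min of crosslinking. There was 1 group, with no other genotype, time, antibody or treatment, and both replicates carry the transgene, for which the sources used here name no driver. The peaks pool all cells of the wing, so that more marked cells and more mark per cell cannot be told apart.

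Depth differed between the replicates. The genome-wide background behind the peak calls was 13.8 fragments for replicate 1 and 27.1 for replicate 2, and the median peak had a fold enrichment of 2.43 and 2.07. Fold enrichment is the authors' ratio of the fragments at a peak's summit to the background around it, with 1 added to both. The label of the tissue was checked against marker genes. Peaks of both replicates that overlapped each other lay in or within 500 bp of 8 of 8 wing genes (vg, sd, nub, rn, ap, bs, Dll and kni). They did so at 0 of 4 neuronal genes, 0 of 4 hemocyte genes, 1 of 5 muscle genes (Mlc2), 1 of 2 tracheal genes (trh), 2 of 3 glial genes (moody and nrv2) and 1 of 4 fat body genes (Lsp2), against 46.8% of all 13922 protein-coding genes. These lists differ in gene length. Ranked by the share of the gene covered in both replicates among genes of 0.5 to 2 times its length, the median wing gene stood at percentile 68.1, and the medians of the other lists lay between 16.4 and 39.7.

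H3K27ac peaks lay along most of the length of EcR. Inside the gene lay 18 peaks of replicate 1 and 26 peaks of replicate 2, and 16 pairs of peaks overlapped between the replicates. These pairs were spread from 1.30 kb to 80.8 kb from the end of the gene with the lower coordinate, which is called the lower end here because the gene table used gives no strand, transcripts or exons. In the whole window, peaks covered 11286 bp in replicate 1 and 13130 bp in replicate 2, and 9464 bp were covered in both. The gene itself was covered to 12.6% in replicate 1, to 13.5% in replicate 2 and to 10.5% in both.

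**Figure D1:**
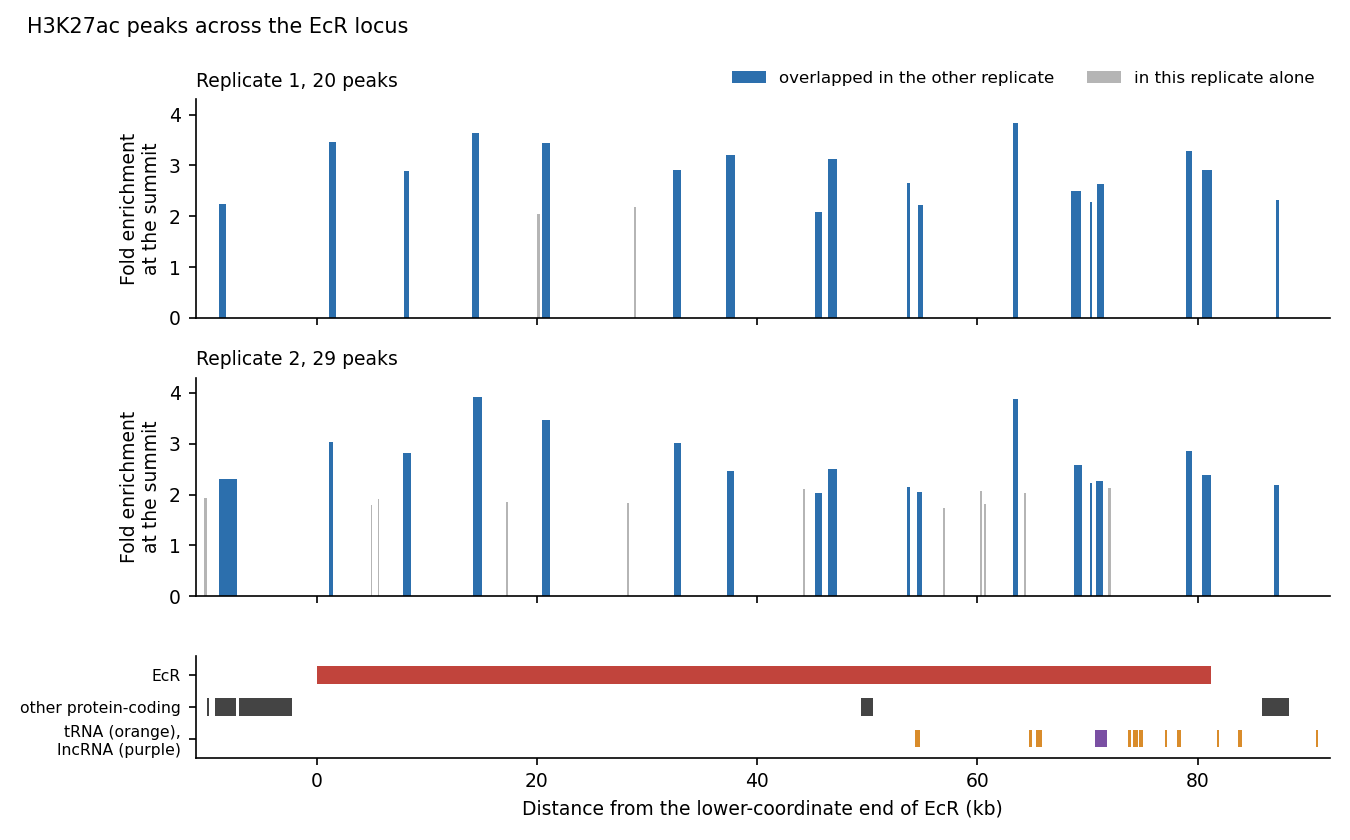
Peaks of each replicate across EcR and 10 kb on both sides, drawn to scale, with the distance from the lower end of the gene in kb on the x axis and the fold enrichment at the summit on the y axis. Blue bars overlap a peak of the other replicate, grey bars do not, and the lowest panel shows the annotated genes. The 18 blue bars of each panel stand at the same places, and the grey bars reach a fold of 2.18 at most.

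Most peaks of the locus recurred. A replicate 2 peak overlapped 18 of the 20 replicate 1 peaks (90.0%), where the share over the whole list was 79.2%. A replicate 1 peak overlapped 18 of the 29 replicate 2 peaks (62.1%), and the share over the whole list was 44.7%. The 18 pairs matched each peak with a single partner. Taken as merged regions, the locus held 31 intervals, of which 18 were in both lists, 2 in replicate 1 alone and 11 in replicate 2 alone. The higher share in replicate 1 depended on the rule. With summits within 250 bp required instead, it was 70% at the locus and 72.2% over the whole list. In replicate 2 these shares were 48.3% and 39.7%. Peaks are not replicates, and these shares describe the lists of 2 libraries.

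The pair with the highest fold in replicate 1 and the second highest in replicate 2 lay at 63.4 kb from the lower end, at 2R 6151108 to 6151527 in replicate 1 and 6151108 to 6151529 in replicate 2. Its fold enrichment was 3.84 in replicate 1 and 3.88 in replicate 2, and it was 420 and 422 bp wide. Start and end thus differed by 0 and 2 bp between the replicates, and the summits by 28 bp. It rested on 94 fragments over a local background of 23.7 in replicate 1 and on 146 fragments over 36.8 in replicate 2. In its list it stood at percentile 96.9 and 99.4 by fold.

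Another high pair lay at 14.5 kb, with a region common to both replicates from 6102040 to 6102641. Its fold was 3.64 in replicate 1 and 3.91 in replicate 2, the highest value of the locus in replicate 2, at percentiles 95.2 and 99.5. The peak was 619 bp wide in replicate 1 and 856 bp in replicate 2. The local background here equalled the genome-wide value in both replicates, at 13.8 and 27.1 fragments. This was not particular to the place, as 19.9% and 25.0% of the peaks of the whole lists lay at or near that value.

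At 20.8 kb, with a common region from 6108376 to 6109028, a pair had a fold of 3.45 in replicate 1 and 3.48 in replicate 2. Closest to the lower end of the gene, at 1.30 kb and with a common region from 6089031 to 6089314, lay a pair with a fold of 3.46 and 3.04. The replicates called this last pair at unlike widths, 626 bp in replicate 1 and 285 bp in replicate 2, although the starts differed by 1 bp and the summits by 24 bp. No peak of either replicate reached the lower end of EcR, and the nearest edges lay 1158 and 1157 bp inside the gene.

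The upper end of EcR was spanned by a peak in both replicates. This pair had a common region from 6168314 to 6169131 with a fold of 2.91 in replicate 1 and 2.39 in replicate 2. It was the widest replicate 1 peak of the locus, at 927 bp, and was 818 bp wide in replicate 2. Its summits lay 640 bp apart, the largest distance of all 18 pairs, with the replicate 2 summit within 5 bp of the annotated end at 6169087. A neighbouring pair 937 bp away, at 79.2 kb, had a fold of 3.29 and 2.86 and its summit at the same base, 6167034, in both replicates.

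The remaining pairs inside the gene lay between these. At 32.8 kb the fold was 2.91 in replicate 1 and 3.01 in replicate 2, and at 8.19 kb it was 2.90 and 2.81. At 37.6 kb and 46.8 kb the replicate 1 values were 3.20 and 3.12, and the replicate 2 values 2.45 and 2.51, so that both pairs were higher in replicate 1. Each of these 4 pairs stood above percentile 75 of both lists. A higher fold in replicate 1 was common, in 12 of the 18 pairs of the locus and in 70.7% of the pairs of the series. A weak pair at 45.6 kb, with a fold of 2.08 and 2.02, lay 487 bp from the strong one at 46.8 kb.

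Pairs also came in tight groups. At 69.1, 70.3 and 71.1 kb, 3 pairs followed each other with gaps of 849 and 422 bp, and their fold was 2.49, 2.27 and 2.64 in replicate 1 and 2.59, 2.23 and 2.27 in replicate 2. The last of them lay inside lncRNA:CR43904, a non-coding RNA gene from 6158597 to 6159635 within EcR, of which 559 bp were covered in both replicates. A further group at 53.7 and 54.8 kb had a fold of 2.65 and 2.22 in replicate 1 and 2.14 and 2.04 in replicate 2, with a gap of 774 bp. Over the locus, the gaps between neighbouring pairs ranged from 422 to 11317 bp with a median of 5761 bp, and 5 of 17 gaps were under 2000 bp. In the union of both lists the longest stretch without any peak was 8360 bp.

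Peaks of the locus were wide within their lists, and many of the pairs were also high. The median width was 622.5 bp in replicate 1 and 390 bp in replicate 2, and the whole lists had medians of 278 and 252 bp. Peaks over 500 bp made up 12 of 20 members in replicate 1 and 12 of 29 in replicate 2, beside 18.4% and 12.6% of the whole lists. Of the 18 pairs, 10 stood above percentile 75 by fold in both lists, all of them inside the gene, where 21.2% of the 12034 pairs of the series did so. Fold enrichment of all members ranged from 2.05 to 3.84 in replicate 1 and from 1.74 to 3.91 in replicate 2. Its medians were 2.77 and 2.18, beside 2.43 and 2.07 over the whole lists.

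Most pairs covered much the same stretch in both replicates. In 16 of 18 pairs the common stretch was at least 50% of both peaks, beside 67.3% of the pairs of the series, and its median share of the wider peak was 88.2%, beside 63.5%. Summits lay within 100 bp of each other in 9 of 18 pairs, beside 61.4%, and their median distance was 70 bp at the locus and 68 bp in the series. The share in common was thus larger than in the median pair of the series, and the distance of the summits was not smaller. Pairs of the locus were also wider, with medians of 627.5 bp in replicate 1 and 646 bp in replicate 2, beside 321 and 338 bp. The part of width in the common share was not tested. Across the 18 pairs, the Spearman correlation between replicates was 0.87 for fold and 0.68 for width. Over all 12034 pairs the values were 0.47 and 0.34. All points of the locus come from 1 gene and the same 2 libraries, so that these correlations are a description.

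**Figure D2:**
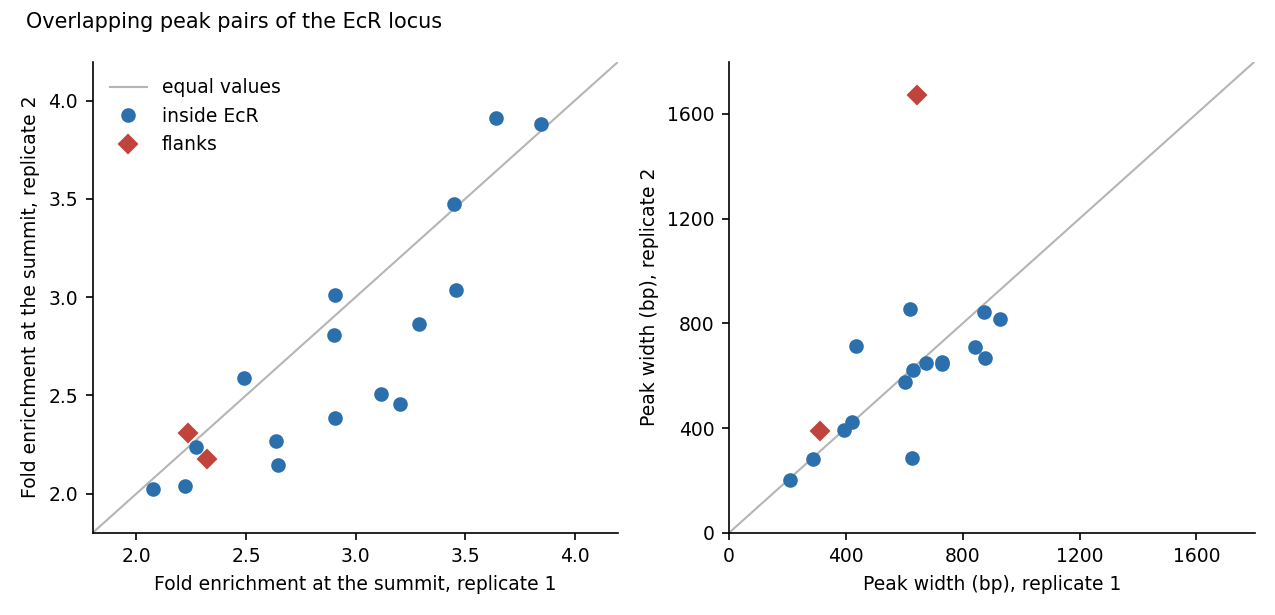
Fold enrichment (left) and width in bp (right) of the 18 overlapping pairs of the locus, with replicate 1 on the x axis and replicate 2 on the y axis. Circles lie inside EcR, diamonds in the flanks, and the line marks equal values. The pairs at 63.4 and 14.5 kb are at the top right of the left panel, and the diamond at a replicate 2 width of 1672 bp is the flank pair over SmydA-5.

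Peaks found in a single list had a low fold at the locus, and most were narrow. In replicate 1 there were 2, with a fold of 2.05 and a width of 321 bp at 20.02 kb and a fold of 2.18 and a width of 136 bp at 28.9 kb, and they lay 190 and 425 bp from the nearest replicate 2 peak. The 11 peaks of replicate 2 alone had a fold between 1.74 and 2.13 and a width between 131 and 221 bp. Of these, 5 lay less than 1 kb from a replicate 1 peak, and the most distant lay 2912 bp away. The highest of them, at 72.0 kb with a fold of 2.13, stood at percentile 56.3 of its list and 421 bp from a replicate 1 peak. No unshared peak of the locus stood above percentile 75. Over the whole lists, unshared peaks had a median width of 190 and 203 bp and a median fold of 2.23 and 1.96.

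Height in fragments ordered the peaks differently from fold. Fold divides by the background around each peak, and this local background differed along the gene. Expressed over the genome-wide background, local background was 1.00 to 1.42 in replicate 1 and 1.00 to 1.30 in replicate 2 at the 4 pairs in the lowest 30 kb of the gene. At the 6 pairs beyond 60 kb it was 1.71 to 3.09 in replicate 1 and 1.36 to 1.76 in replicate 2. Over these pairs, the ranges of the 2 stretches did not overlap in either replicate. With unshared peaks the replicate 2 ranges nearly met, as peaks at 60.3 and 60.6 kb had 1.314 and 1.302, beside 1.299 at 20.8 kb. The 6 pairs between 30 and 60 kb, at 1.18 to 1.90 and 1.10 to 1.57, overlapped both stretches. Medians over the 3 stretches, from the lowest up, were 1.03, 1.65 and 2.70 in replicate 1 and 1.08, 1.34 and 1.63 in replicate 2. Close neighbours had near-equal local background, with 3.09, 3.05 and 3.05 in replicate 1 at 69.1, 70.3 and 71.1 kb. Pairs close to each other are therefore not separate readings of the local background. The stretches were set after the values had been seen.

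Summit pileup, the number of fragments over the summit, was likewise divided by the genome-wide background. The 4 pairs of the lowest 30 kb had 3.04 to 5.06 in replicate 1 and 2.88 to 4.61 in replicate 2. Those beyond 60 kb had 6.80 to 8.17 in replicate 1 and 3.69 to 5.38 in replicate 2, so that these stretches were apart in replicate 1 and overlapped in replicate 2. Between 30 and 60 kb the values were 2.75 to 6.08 and 2.32 to 4.202, and the replicate 2 median of 3.24 was below the 3.80 of the lowest 30 kb. On this scale the highest replicate 1 peak was the one inside lncRNA:CR43904, at 8.17, where replicate 2 had 4.02. The highest in replicate 2 was the peak at 63.4 kb, at 5.38, where replicate 1 had 6.80.

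The ratio of replicate 1 to replicate 2 on this scale also differed along the gene. It was 0.954 to 1.10 in the lowest 30 kb, 1.18 to 1.63 between 30 and 60 kb and 1.26 to 2.03 beyond 60 kb. Over all pairs of the series its median was 1.26, and 0.860 and 1.91 were the 5th and 95th percentiles. The Spearman correlation of this height between the replicates was 0.74 over the 18 pairs and 0.61 over the series. With 1 value per replicate at each place, this difference between libraries has no error of its own.

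**Figure D3:**
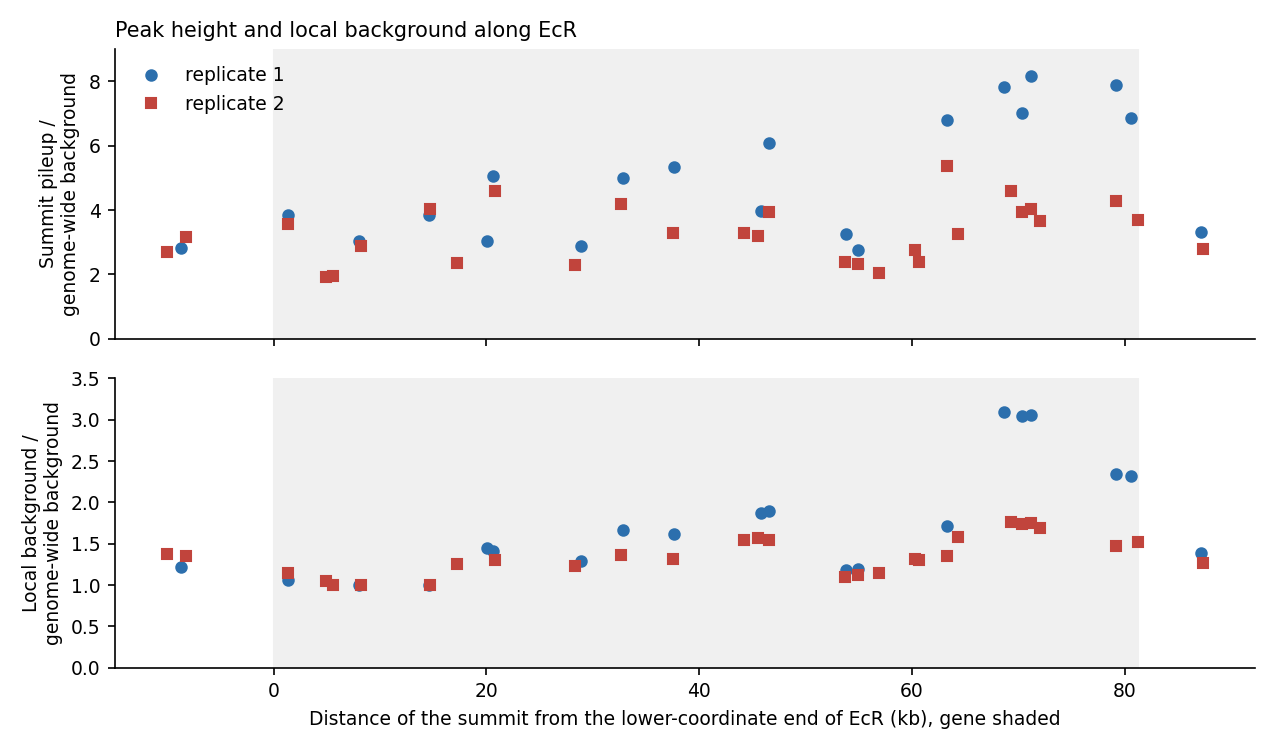
Summit pileup (top) and local background (bottom) of every member, each divided by the genome-wide background of its replicate, against the distance of the summit from the lower end of EcR in kb. Circles are replicate 1, squares replicate 2, and the gene is shaded. Inside the gene and beyond 60 kb, the shared replicate 1 peaks reach 6.80 to 8.17 in pileup and up to 3.09 in local background.

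Other genes of the window shared few of these peaks. On the lower side, the pair over SmydA-5 had a fold of 2.23 in replicate 1 and 2.31 in replicate 2, with widths of 644 and 1672 bp, the least alike of all 18 pairs. CG7849, at the lower limit of the window, held a peak of each replicate with 0 bp in common, and the replicate 1 peak lay outside the window. Ars2, the protein-coding gene next to the lower end, held no peak in either replicate. On the upper side, a pair inside Cyp6w1, a gene of the cytochrome P450 family, had a fold of 2.32 and 2.18. The 16 pairs inside EcR had a median fold of 2.91 in replicate 1 and 2.55 in replicate 2, and both flank pairs were below it. Within EcR, the protein-coding gene CG14589, from 6137303 to 6138411, held no peak, and the nearest peaks lay 2162 and 2184 bp away.

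The window also holds 17 transfer RNA genes, 13 of them inside EcR, with 6 for asparagine, 5 each for arginine and lysine and 1 for isoleucine. Peaks overlapped 0 of them in replicate 1 and 1 in replicate 2, by 9 bp at a lysine gene from 6142372 to 6142444. Of all 290 transfer RNA genes on the chromosome arms, 0.69% and 1.72% were overlapped. A peak lay within 500 bp of 3 of the 17 in replicate 1 and of 4 in replicate 2. No share over all 290 is given for this distance, so these counts cannot be read as many or few. Transfer RNA genes have near-identical copies, and how reads from such copies were treated is not stated. The deposited peak names carry the tag RMq10, whose meaning is not stated, and the part of any mapping filter in these counts was not tested.

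At the edges of the window, the members nearest to the limits were weak. On the lower side, the replicate 2 peak from 6077688 to 6077904, with a fold of 1.94, crossed the limit, and the replicate 1 peak that ended at 6077284, with a fold of 2.58, lay 589 bp outside. On the upper side, the outermost members were those in Cyp6w1, and the next peaks started 882 bp outside in replicate 1, with a fold of 2.13, and 87 bp outside in replicate 2, with a fold of 2.00.

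A long gene collects more peaks than a short one, so EcR was set beside the 433 protein-coding genes with 0.5 to 2 times its length, itself included. The share of the gene covered in both replicates was 10.5% for EcR, the highest of all 433. The next gene had 8.87%, the median was 1.25%, and 130 genes had no base covered in both. Peaks of both replicates that overlapped each other were found in or within 500 bp of 71.8% of these genes. With 10 kb on both sides, EcR again ranked 1 of 433 by the bp covered in both, at 9464 bp beside a median of 1465 bp. On this measure it ranked 3 by the list of replicate 1 alone and 8 by that of replicate 2 alone. By the share of the gene covered, the single lists gave ranks of 4 and 12.

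**Figure D4:**
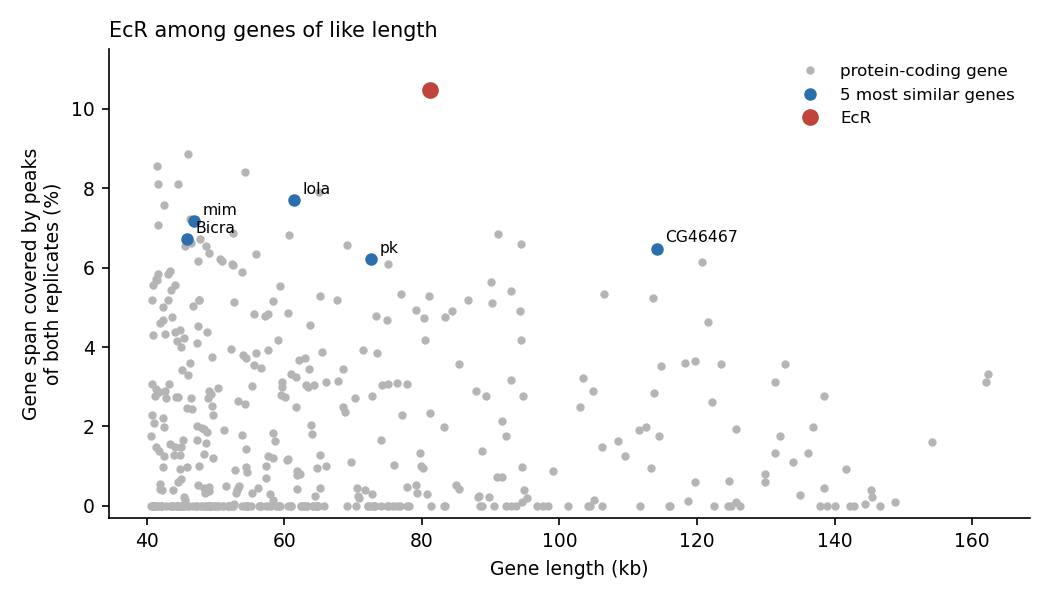
Share of the gene span covered by peaks of both replicates (%), against gene length (kb), for the 433 protein-coding genes with 0.5 to 2 times the length of EcR. Each point is a gene, EcR is the large red point at 10.5%, and the 5 named genes are those most similar to it in peak density and coverage.

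Among genes of like length, EcR stood above the median both in the number of peaks and in the covered length per peak. It held 2.22 peaks per 10 kb in replicate 1 and 3.20 in replicate 2, which ranked 57 and 79 of 433. The medians of the 433 genes were 0.694 and 1.39. Covered length per peak averaged 567 bp in replicate 1, rank 4 of the 216 genes with at least 5 peaks, whose median was 317 bp. In replicate 2 it was 423 bp, rank 5 of 258 genes, with a median of 288 bp. The ranks by density and by length per peak come from different sets of genes and cannot be set against each other. Ranks describe these 2 libraries and carry no test.

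Likeness to EcR was measured by the distance in 4 percentiles, the peak density and the covered share in each of the 2 replicates. The 5 nearest genes were Bicra, mim, lola, pk and CG46467, at distances from 8.56 to 11.1 percentile points. Of these, lola encodes a family of BTB zinc finger transcription factors and pk a planar polarity protein. Their share covered in both replicates was 6.72% for Bicra, 7.16% for mim, 7.70% for lola, 6.22% for pk and 6.48% for CG46467. The 10.5% of EcR was the highest of all 433 genes, so that any gene drawn from them lies below it.

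The other genes of the ecdysone pathway were read from a list of 28, ordered here by role. Of these, 25 (89.3%) had overlapping peaks of both replicates in the gene or within 500 bp. Their median length was 21.7 kb, and among the 1428 protein-coding genes with 0.5 to 2 times that length the share was 71.8%. Each gene was also ranked by the share of its span covered in both replicates among genes of 0.5 to 2 times its own length, where genes of equal value shared the middle of their ranks. The median of the 28 was percentile 71.1, with 11 above percentile 75 and none above EcR, which stood at 99.9.

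Receptor partners and cofactors differed among themselves. The gene usp, which encodes the partner of EcR, had no peak in either replicate in the gene or within 500 bp, and it is 3.51 kb long. The coactivator gene tai, of a length close to that of EcR at 83.4 kb, also held 16 pairs, and the highest of them, by the lower of its percentiles in the lists, had a fold of 4.15 in replicate 1 and 3.86 in replicate 2. Those pairs covered 4.75% of tai in both replicates, at percentile 84.8, so that a like number of pairs gave a smaller covered share than in EcR. Smr, a corepressor gene, held 3 pairs in 58.4 kb and stood at percentile 47.8. The nuclear receptor gene Hr38 and the chromatin remodelling gene E(bx) had covered shares of 5.31% and 8.92%. For bon it was 6.53% and for rig 2.81%. For trr, a histone methyltransferase gene, and for Alien, a pair lay within 500 bp of the gene, and 0% of the gene was covered in both.

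Genes for hormone import, activation and clearance had a median length of 7.75 kb and stood at a median percentile of 58.8 for their length. Oatp74D, the ecdysone importer gene, held 3 pairs and a covered share of 4.43%, at percentile 72.5. Cyp18a1, which encodes an enzyme that inactivates the hormone, held 1 pair with a fold of 3.04 in replicate 1 and 2.88 in replicate 2, at percentile 60.4. The transporter gene E23 held 4 pairs at percentile 58.8, the hydroxylase gene shd had 1 pair with 0% of the gene covered in both, and Eo, the ecdysone oxidase gene, had none.

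The genes grouped here as early stood above the median of genes of like length in 5 of 6 cases. Eip78C held 11 pairs and 8.25% at percentile 97.3, Eip74EF 11 pairs and 6.83% at percentile 94.1, and vri 6 pairs and 8.12% at percentile 93.7. Eip93F and Eip75B held 11 and 15 pairs, with 3.87% and 2.84% covered, at percentiles 74.9 and 69.7. By the same measure, the highest pair of Eip75B had a fold of 4.65 in replicate 1 and 3.45 in replicate 2. The exception was br, which held 1 pair in 89.7 kb and a covered share of 0.218%, at percentile 34.3.

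Among later factors, the zinc finger gene crol had 13.2% of its 15.1 kb covered in both replicates, the only share of the list above that of EcR, at percentile 98.5 for its length. The nuclear receptor genes Hr39, ftz-f1, Hr3 and Hr4 had 7.19%, 6.21%, 4.22% and 3.13%. The non-coding RNA gene of let-7-C had 6.76%, and the repressor gene Blimp-1 3.01%. Hr51 had no overlapping pair, with 0 peaks in replicate 1 and 1 in replicate 2.

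Chromosome moved with these values. The 7 listed genes on X (usp, Smr, trr, Cyp18a1, Eo, br and Hr4) stood between percentiles 19.5 and 68.3 with a median of 34.3, and the 21 autosomal genes had a median of 80.0. The wings were male, and X held 9.22% of replicate 1 peaks and 5.47% of replicate 2 peaks, and 15.8% of the protein-coding genes. The part of the chromosome in the difference between EcR, on 2R, and the genes on X was not tested.

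**Figure D5:**
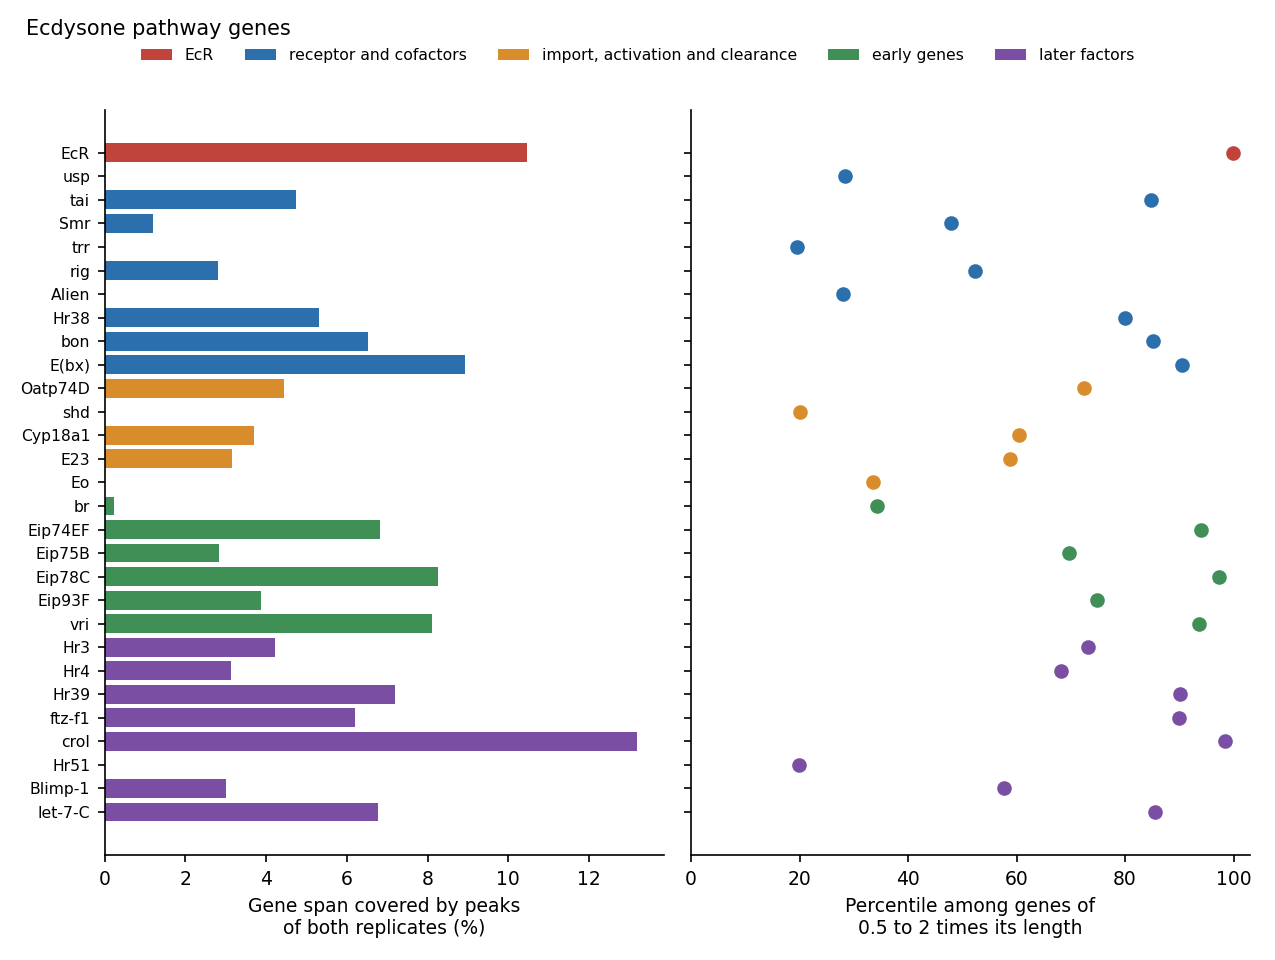
Share of the gene span covered by peaks of both replicates (%, left) and its percentile among protein-coding genes of 0.5 to 2 times the gene's length (right), for EcR and 28 genes of the ecdysone pathway, coloured by role. EcR is at percentile 99.9, crol has the longest bar at 13.2%, and usp, trr, Alien, shd, Eo and Hr51 have no bar.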

How the data were processed

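H3K27ac CUT&RUN was measured in 2 biological replicates of male pupal wings, which form 1 group. Per the submitters' processing notes, reads were processed with Bowtie2, MACS2 and the build dm6. Not given in the sources used here are versions, caller settings, duplicate handling and any control. The authors deposited 1 peak list per replicate, with start, end, summit, a score, a fold and the -log10 p and -log10 q of each peak. The deposited fold is a ratio of summit to background, the deposited -log10 q was used for filtering, and the deposited score, a whole-number form of it, was not used.

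Positions were made 1-based. Peaks were shared when they overlapped by at least 1 bp. Pileup and local background were solved from the authors' fold and -log10 p as a whole number over a Poisson background, with fold as pileup plus 1 over background plus 1. The solution lay within 0.001 units of log10 p for all but 1 peak of each list and for every member. The most frequent background was taken as genome-wide. Total reads are not stated, and without molecular identifiers the fragments need not be independent. The lists start at a -log10 q of 2.01 (replicate 1) and 2.04 (replicate 2), so weaker peaks are unseen.

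Genes came from the RefSeq table, which gives no strand or exons. Of the 28 pathway symbols, 2 were matched through a synonym. Named genes were EcR, the genes of its window, the pathway list and the 5 nearest genes. The members, lists and alternatives were chosen with earlier results of these data known. Percentiles, ranks and shares are descriptions, and no comparison of conditions was possible. Overlap, coverage and the solver were tested on simulated data. Python 3.11.15, numpy 2.4.6, pandas 2.3.3, scipy 1.17.1 and matplotlib 3.10.9 were used.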

Additional observations from a re-analysis of the deposited data

How the results depend on the processing

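Of the results on the locus, most moved by less than 1.5 times, or stayed inside the 95% Wilson interval of a share, under the alternatives tried. That interval treats peaks of 1 locus as independent and is wide for so few peaks. It served as a loose limit and not as a test, and a change from 90% to 70% stayed inside it. Restricting both lists to the 7230 top peaks left 14 members in replicate 2 (29 before) and 14 in replicate 1. The overlapped share of replicate 2 peaks was then 92.9%, beside 59.4% over the whole restricted list. With a -log10 q of at least 5, 15 members of replicate 1 were left and 100% of them were overlapped, beside 78.4% over that list. With a reciprocal overlap of 50%, 80% of replicate 1 members were matched, beside 56% over the whole list. For replicate 2 these shares were 55.2% and 30.6%. When shared meant summits within 250 bp, the replicate 1 share was 70%, no longer above the 72.2% of the whole list. For replicate 2 it was 48.3%, beside 39.7%. By this summit rule, EcR ranked 2 of 433 by the bp covered in both replicates. It ranked 1 under the other alternatives that used both lists and gave a rank, among them 3 added after seeing the data, namely a narrower range of lengths, genes of at least 50 kb and the percent of the window covered. Leaving out a replicate gave ranks from 3 to 8, a covered length from 11286 to 13130 bp and from 25 to 26 pathway genes with a peak, because each then rests on 1 list. The share of overlapped peaks has no value with 1 list, and no rank was computed by summits inside the span. Pathway genes with peaks in both replicates numbered from 22, in the gene without flank, to 27, with 20 kb on both sides. No paired analysis was possible because there is 1 group. The background of replicate 1 was the lower one. The part of depth in the peaks listed in replicate 2 alone was not tested. Depth limits any statement on places without a peak.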
